A study of Mus musculus with 18 samples.

Results

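The regions described here are 3336 short H3K36me3 peaks of leukemic spleen cells with the NHD13 transgene that were still touched by a peak in leukemic spleen cells labelled NHD13/Setd2 KO. Trimethylation of histone H3 at lysine 36 (H3K36me3) was profiled by ChIP-seq with antibody ab9050 in 1 library of each kind, so the difference between the 2 peak lists has no replicate check. The NHD13 AML list held 30953 peaks and the KO AML list 16902. Members were chosen by the 2 lists alone: they are the NHD13 AML peaks on chromosomes 1 to 19 that were shorter than 10000 bp, had a fold enrichment of 100 or less, and overlapped a KO AML peak by at least 1 bp. They made up 13.6% (95% Wilson interval 13.2 to 14.1, counting error only) of the 24491 short peaks. The other 21155 short peaks are called lost, and the 5449 autosomal peaks of 10000 bp or more are called long. Membership rests on both peak lists, so every statement about overlap, length or fold enrichment is a description and carries no test.

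All samples were from C57BL/6 mice. NHD13 is a transgene for the NUP98-HOXD13 fusion, which gives mice a myelodysplastic syndrome that can turn into acute myeloid leukemia (AML). The 2 ChIP libraries came from C-Kit+ spleen cells at the leukemia stage, and no library of RNA or bisulfite-treated DNA from NHD13 AML was analysed here. RNA-seq (12 libraries, 3 per group) and whole-genome bisulfite sequencing (4 libraries, 1 per group) covered 4 groups. WT and NHD13 were hematopoietic stem and progenitor cells (HSPCs) of bone marrow, the NHD13 mice also carrying floxed Setd2 alleles on both chromosomes. KO was HSPCs with the same transgene and Setd2 deleted by Mx1-Cre, a recombinase that is switched on by interferon in blood cells and other tissues, and AML was C-Kit+ spleen cells of such knockout mice with leukemia. Of the 4 groups, WT alone is without the transgene. The labels do not say whether the 3 RNA libraries of a group came from separate mice, so p-values measure the spread between these libraries.

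Setd2 is the enzyme that writes H3K36me3 behind elongating RNA polymerase II, by riding on the polymerase itself, so the mark builds up over the bodies of transcribed genes and is heaviest towards their ends. Its readers include the DNA methyltransferases Dnmt3a and Dnmt3b, which methylate CpG sites in gene bodies through a domain that binds methylated H3K36. Nsd1, Nsd2, Nsd3 and Ash1l add 1 or 2 methyl groups at the same lysine without being known as the main source of the trimethyl form.

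The sequences below show which microRNAs lay inside retained peaks. MicroRNAs are cut from hairpins in longer transcripts and pair with target RNAs through their seed. Of 919 autosomal hairpins in the RefSeq table (GRCm38.p6), 53 lay wholly inside a retained peak, 59 inside a lost peak and 188 inside a long peak, which is 3.18, 1.18 and 1.52 hairpins per Mb of peak. Genes of all kinds were denser in retained peaks too, with 191, 137 and 52.3 per Mb of retained, lost and long peak, counted by any overlap. A KO AML peak covered 25 of the 53 (47.2%), where KO AML peaks covered 27.4% of all retained bases. Hairpins of a cluster share a peak, so the 53 are not independent. The retained peaks held both autosomal clusters of the miR-17 family whole. The cluster on chromosome 14, in Mir17hg, lay in the peak chr14:115043233-115047933 (fold enrichment 5.68, 56.5% of its bases covered by KO AML peaks). The cluster on chromosome 5, inside the replication helicase gene Mcm7, lay in the peak chr5:138162688-138170111 (fold enrichment 7.55, 66.3% covered). Mature microRNAs of the 2 clusters that share a seed with one another are given 5′ to 3′, with the seed (bases 2 to 8) in capitals:
miR-17-5p: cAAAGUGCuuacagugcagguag
miR-20a-5p: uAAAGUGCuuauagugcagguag
miR-93-5p: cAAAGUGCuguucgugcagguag
miR-106b-5p: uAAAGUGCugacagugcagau
miR-92a-3p: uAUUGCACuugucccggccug
miR-25-3p: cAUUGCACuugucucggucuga
miR-19a-3p: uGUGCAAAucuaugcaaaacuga
miR-19b-3p: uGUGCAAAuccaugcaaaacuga
The first 4 share the seed AAAGUGC, the next 2 share AUUGCAC, and the last 2 share GUGCAAA. miR-93-5p, miR-106b-5p and miR-25-3p come from chromosome 5 and the other 5 from chromosome 14. All 8 lay inside a KO AML peak as well.

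Another pair with a common seed, UCAAGUA, comes from introns of Ctdsp1 and Ctdsp2, which encode small phosphatases that act on RNA polymerase II. Both microRNAs also lay inside KO AML peaks:
miR-26a-5p: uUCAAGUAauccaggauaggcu
miR-26b-5p: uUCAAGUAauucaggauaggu
The miR-181 pair, with seed ACAUUCA, lay in the retained peak chr1:137961270-137969161, of which KO AML peaks covered 3.92%, and neither microRNA was inside the covered stretch:
miR-181a-5p: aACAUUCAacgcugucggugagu
miR-181b-5p: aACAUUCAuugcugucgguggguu
Mature microRNAs were not measured. The host transcript Mir17hg stood at 3.98, 5.11 and 5.09 CPM (counts scaled to library size with TMM factors) in WT, at 3.56, 5.30 and 4.05 in NHD13, at 4.53, 4.41 and 5.51 in KO, and at 17.5, 15.2 and 16.0 in AML. The AML libraries were all above the others, and the log2 fold change against KO was 1.75 ± 0.15 (SE, edgeR quasi-likelihood test, adjusted p = 2.35e-09). Mcm7 ran from 301 to 307 CPM in AML and from 324 to 397 in KO, which did not pass the test (log2 fold change -0.20 ± 0.11, edgeR adjusted p = 0.105).

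Retained peaks were mostly of middling length. Their length had a median of 4959.5 bp, against 1582 bp for lost peaks, and ran from 297 to 9997 bp. Their fold enrichment, the authors' own value for each peak in the NHD13 AML list, had a median of 4.92, against 4.22 for lost and 5.24 for long peaks. The share retained rose with length from 3.13% of 2941 peaks under 500 bp to 40.8% of 3040 peaks of 6000 bp or more. By fold enrichment it rose from 3.14% of 6592 peaks under 4 to 95.1% of the 41 short peaks of 8 or more. The lists start at different values, 3.64 for NHD13 AML and 4.40 for KO AML, each on its own library's scale, and no peak of the KO AML list has a value under 4. A longer peak can meet a KO AML peak at more positions, so part of the rise with length follows from the rule itself. By chromosome the share ran from 10.04% on chromosome 12 to 20.6% on chromosome 17.

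**Figure D1:**
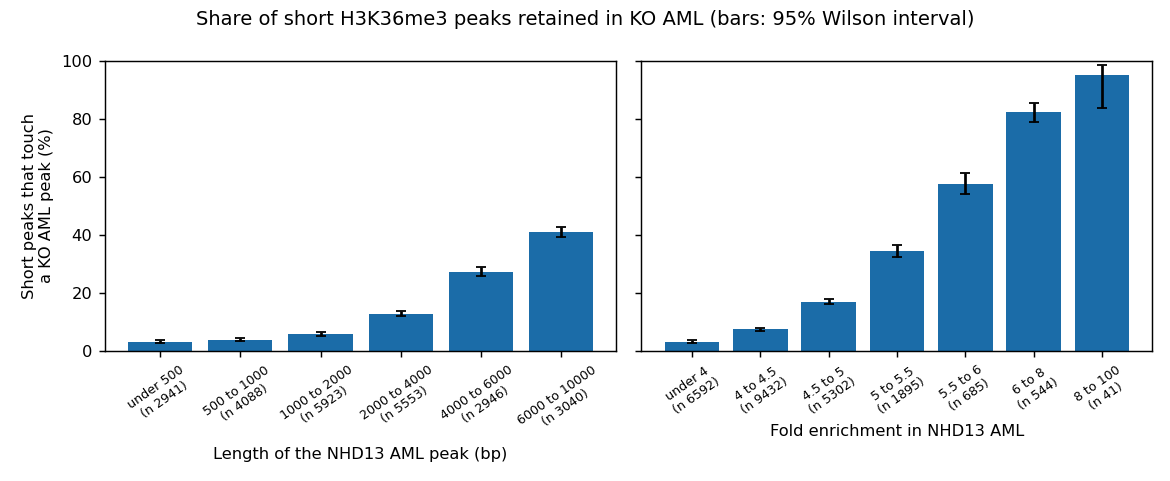
Share of short NHD13 AML peaks that touch a KO AML peak (y axis, %), by length in bp (left) and by fold enrichment in the NHD13 AML list (right), with the number of short peaks under each bar and 95% Wilson intervals that cover counting error only. The share climbs from 3.13% to 40.8% over the length classes and from 3.14% to 95.1% over the fold classes.

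Contact with a KO AML peak was usually partial. KO AML peaks covered a median of 25.8% of a retained peak and 27.4% of all retained bases. They covered at least 50% of 714 peaks (21.4%), all of 116 peaks, and less than 10% of 598 peaks (17.9%). A single KO AML peak touched 3026 of the retained peaks, a pair touched 283, and 27 were touched by 3 or 4. Asking for 50% coverage in place of 1 bp leaves 2.92% of short peaks retained, and asking for a −log10 q of at least 5 in the KO AML list leaves 4.13%. The KO AML peaks that lay in retained peaks with 1 stranded host gene had their middle in the upstream part of the peak, in transcript direction, in 33.4% of 2640 cases, in the middle part in 43.0% and in the downstream part in 23.6%, the 3 parts being equal in length.

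The edges of the rule fell among ordinary peaks for length and coverage, and far from most peaks for fold. The longest members measured 9992 bp (Ifi209), 9995 bp (Mtap) and 9997 bp (Ttc14 and Ccdc39), and the first peaks beyond the limit 10007 bp (Rin3), 10011 bp (Bcl10) and 10014 bp (Cic), all 3 of them also touched by a KO AML peak. The least contact among those named was 4 bp in Cilk1, 7 bp in Gsk3b, 15 bp in Kdm2b, 17 bp in Slc19a1 and 35 bp at Akap9 and Cyp51. The highest fold enrichments inside the limit were 42.1, 34.5 and 22.7, and the 5 autosomal peaks beyond it had values from 189 to 5016.

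The retained peaks of highest fold enrichment inside genes with an official symbol included short intervals that were almost fully covered and peaks over small genes. The former include a 548 bp peak in Cmss1 and Filip1l (22.7), a 418 bp and a 398 bp peak in D5Ertd579e (21.9 and 12.4), a 320 bp peak in Kctd16 (10.9) and a 576 bp peak in Kcnq3 (10.8), with 98.0% to 100% of each under a KO AML peak. The KO AML peaks over them, in the same order, had higher fold enrichments of 60.0, 29.3, 19.4, 38.6 and 11.5. Each list has its own library's scale. Kcnq3, a potassium channel gene of neurons, had at most 0.812 CPM in any RNA library. The latter include Nrros (9.80, 94.8% covered) and Eef2, the translation elongation factor that moves the ribosome along the messenger (9.71, 88.5% covered, with Snord37 inside). A 679 bp peak in Tusc3 (11.3) was 58.0% covered. The KO AML peaks at Nrros, Eef2 and Tusc3 had lower fold enrichments, of 6.67, 7.80 and 5.89. The next 6 in rank were at Arhgdia (9.04), Jarid2 (8.80), Rpl13a (8.46), Emilin1 (8.40), Rpl3 (8.29) and Ucp2 (8.27).

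Retained peaks lay in genes, as the mark does in general. A gene overlapped 97.5% of retained, 96.8% of lost and 99.98% of long peaks. A promoter window, from 250 bp before to 50 bp after a RefSeq start, was touched by 2.82% of retained peaks (94 peaks), against 1.15% of lost and 7.32% of long peaks. Among the 2396 retained peaks that overlapped 1 coding gene of known strand, the middle of the peak lay past the midpoint of the gene, towards its 3′ end, in 61.2% (95% Wilson interval 59.2 to 63.1), against 51.2% of lost (50.4 to 51.9) and 77.1% of long peaks (75.8 to 78.4). The end of the gene was inside the peak for 28.2% of retained, 5.77% of lost and 44.8% of long peaks. The gene itself had a median length of 45.1 kb for retained, 92.3 kb for lost and 48.8 kb for long peaks, and was under 20 kb for 34.5%, 10.02% and 16.2% of them. Peaks of 1 gene share that gene, so these shares have less independent information than their numbers of peaks.

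**Figure D2:**
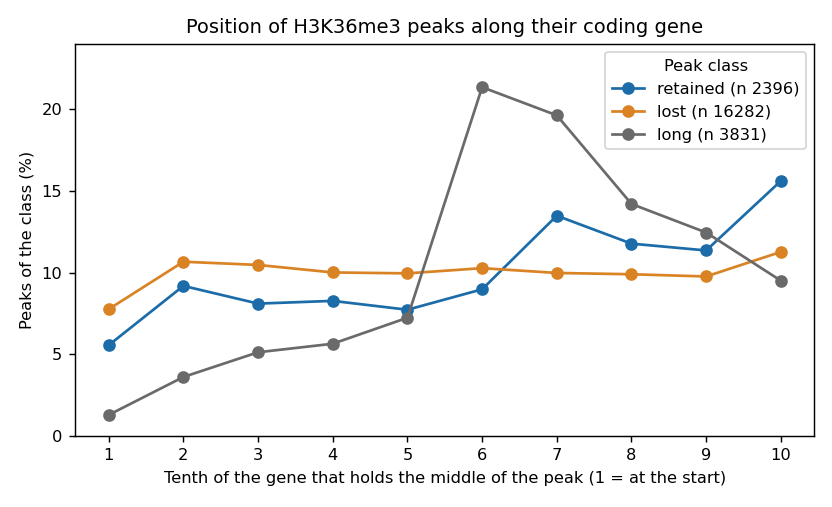
Position of the middle of the peak in the coding gene, in transcript direction and in 10 equal bins (x axis), and share of the peaks of each class (y axis, %), for peaks that overlap 1 coding gene of known strand. Lost peaks are spread almost evenly, long peaks gather around the sixth bin, with 21.4% of them, and retained peaks are most frequent in the last bin, with 15.6%.

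The genes that hold the peaks differed by class. A host gene is one whose RefSeq span overlaps a retained peak by at least 1 bp. There were 3177 host genes, 2717 of them protein-coding. Of all hosts, 2707 held 1 retained peak, 470 held more, 1433 also held a lost peak, 860 also held a long peak, and 1564 held retained peaks only. The genes with most retained peaks were long genes that also held many lost ones. Arhgap15, a Rac inhibitor of white blood cells that spans 647 kb, held 11 retained, 88 lost and 2 long peaks. Foxp1, a transcription factor gene of lymphoid and myeloid cells, held 9 retained, 72 lost and 5 long peaks. Fut8, which adds the core fucose to glycoproteins, and Rftn1, a lipid raft protein gene, each held 9 retained peaks with 18 and 13 lost ones. Dock10, Elmo1, Phf14, Thada and Vps13b each held 7, and Adgrl4, Eya1, Fchsd2, Gab2 and Iqgap2 each held 6.

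Ribosomal protein genes, which encode the protein parts of the ribosome and are among the shortest and most active genes of a cell, were mostly hosts. A retained peak was present in 64 of 81 (79.0%), a lost peak in 2 and a long peak in 9, and 6 held none of the 3. Over all 20665 autosomal coding genes a retained peak was present in 13.1%, a lost peak in 27.5% and a long peak in 25.01%. These genes had a median span of 3.18 kb and a median of 469 in the deposited FPKM, which is scaled to gene length and depth, in the AML libraries, against 18.3 kb and 0.717 FPKM for the other coding genes matched to the RNA table. Among other coding genes under 20 kb, the share with a retained peak was 1.36% below 1 FPKM, 17.8% from 1 to 5, 24.7% from 5 to 20, 34.9% from 20 to 100 and 44.9% at 100 or more FPKM. The share with a lost peak was highest, at 39.7%, between 5 and 20 FPKM and was 18.7% at 100 or more. The steady rise for retained peaks did not hold in genes of 20 to 100 kb. There the share with a retained peak was 23.1% from 5 to 20 FPKM and 20.7% from 20 to 100. At 100 FPKM or more it was 12.3% of 73 genes, of which 93.2% held a long peak. In genes of 100 kb or more it was 52.6% from 5 to 20 FPKM and 59.1% from 20 to 100. Small nucleolar RNA genes, many of which sit in introns of ribosomal protein genes, were counted as well: 91 of 1286 (7.08%) overlapped retained, 27 lost and 131 (10.2%) long peaks. Per Mb of peak that is 5.46, 0.538 and 1.06, where genes of all kinds stood at 191, 137 and 52.3.

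**Figure D3:**
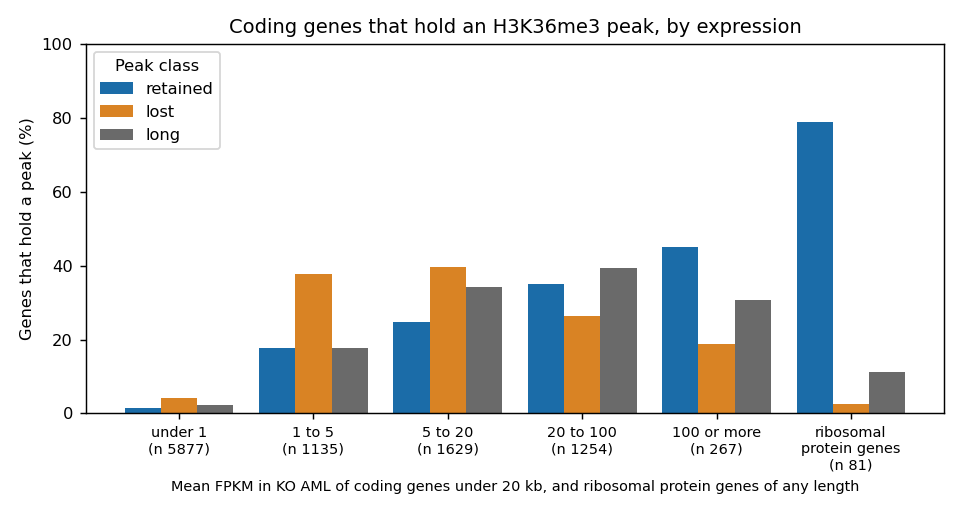
Share of autosomal coding genes that hold a retained, lost or long H3K36me3 peak (y axis, %), for genes under 20 kb without ribosomal protein genes by mean FPKM in the AML libraries, and for the 81 ribosomal protein genes (x axis, number of genes in brackets). Retained peaks go from 1.36% to 44.9% of genes over the expression classes and reach 79.0% of ribosomal protein genes.

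The share of a retained peak covered in KO AML also moved with expression at the high end. Among retained peaks with 1 coding gene in the RNA table, the median covered share was 32.8% below 1 FPKM in AML (59 peaks), 23.5% from 1 to 5 (588 peaks), 22.2% from 5 to 20 (1365 peaks), 28.1% from 20 to 100 (658 peaks) and 41.9% at 100 or more (144 peaks). The last class had a median gene span of 5.07 kb, against 67.3 kb in the class from 5 to 20 FPKM, so expression and gene length cannot be told apart here. The RNA came from KO AML cells, the kind of cells used for the 1 ChIP library that supplied the covering peaks. The labels do not say whether the RNA and ChIP libraries came from the same mice.

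The median host of a retained peak was expressed above the median host of a lost peak in all 12 RNA libraries. The former (2895 matched to the RNA table by symbol) had 5.76 to 6.42 FPKM in WT, 4.18 to 4.51 in NHD13, 5.10 to 5.36 in KO and 9.84 to 10.01 in AML. The latter (6109 genes) had 3.18 to 3.46, 2.46 to 2.64, 2.74 to 2.83 and 5.84 to 5.91. Hosts of long peaks (5810 genes) were nearer those of retained peaks, with 4.72 to 5.16, 3.95 to 4.30, 4.37 to 4.59 and 9.65 to 9.76. Genes that held retained peaks only (1378 genes) had medians of 11.98 to 13.01, 8.99 to 10.6, 11.5 to 11.8 and 14.003 to 14.17 FPKM. Genes that held lost peaks only (3038 genes) had 1.92 to 2.14, 1.48 to 1.55, 1.58 to 1.66 and 2.83 to 2.87. Those that held long peaks only (3269 genes) had 4.92 to 5.40, 4.28 to 4.70, 4.66 to 4.99 and 9.51 to 9.62. In bulk samples fewer cells of a type and less RNA per cell cannot be told apart.

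Several facts of the libraries move with the RNA comparisons below. Total counts ran from 18673704 to 28127686 per library. Xist had 53.9 to 229 CPM (per library total, no composition factor) in the WT and NHD13 libraries and at most 0.0979 in KO and AML, where the Y-linked Eif2s3y had 53.8 to 88.8, so NHD13 and KO libraries also differ in sex. Summed neutrophil granule markers held 33428 to 37484 CPM in WT and 135502 to 149588 in NHD13. They held 56295 to 58981 in KO and 36232 to 37237 in AML, with 25 or more of 26 genes detected in each group. Stem and progenitor markers summed to 2581 to 2675 CPM in WT and 845 to 852 in NHD13. In KO they summed to 1605 to 1621, and in AML to 2764 to 2800. Kit, the receptor used in the sort, was at 69.4 to 75.7 CPM in NHD13 and 211 to 217 in AML, and Cd34, a progenitor marker, at 11.7 to 13.6 in NHD13, 143 to 154 in KO and 379 to 399 in WT. Their part in the results below was not tested.

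Setd2 itself held 1 retained, 1 lost and 1 long peak. Its gene-level RNA stood at 45.2, 43.9 and 37.2 CPM in WT, at 34.4, 34.6 and 31.5 in NHD13, at 33.1, 29.2 and 34.9 in KO, and at 183, 187 and 179 in AML. KO and NHD13 libraries overlapped (log2 fold change -0.05 ± 0.08, edgeR adjusted p = 0.685), and AML libraries were all far above KO (2.50 ± 0.08, edgeR adjusted p = 1.64e-15). A count over the whole gene does not show whether an exon was deleted, so it does not check the KO label. Nsd1, Nsd2, Nsd3 and Ash1l were hosts too. Against NHD13, KO libraries had less Nsd1 (-0.18 ± 0.07, edgeR adjusted p = 0.0401) and Nsd2 (-0.24 ± 0.06, edgeR adjusted p = 0.00609), neither of which passed with upper-quartile scaling. They had more Nsd3 (0.26 ± 0.08, edgeR adjusted p = 0.0184), and Ash1l did not pass (0.19 ± 0.08, edgeR adjusted p = 0.0692). In AML against KO all 4 rose, Nsd1 by 1.72, Nsd2 by 2.26, Nsd3 by 2.34 and Ash1l by 1.001 on the log2 scale. In that comparison 42.8% of all tested genes rose, and 64.3% of those whose length given by the authors was 5884 bases or more.

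Between KO and NHD13 HSPCs, more hosts rose than fell. Of 2686 hosts tested, 728 (27.1%) rose and 502 (18.7%) fell, where 20.6% and 20.3% of all 16233 tested genes rose and fell (edgeR adjusted p below 0.05). The median log2 fold change was 0.04 for hosts and 0.02 for all genes. Hosts of lost peaks rose in 20.2% and fell in 26.3%, and hosts of long peaks in 16.4% and 26.8%. Genes that held retained peaks only rose in 23.4% and fell in 19.5%, closer to all genes. Of the hosts called, 59.2% rose, which became 69.2% with upper-quartile scaling, where all called genes went from 50.3% to 58.8%. The difference between the classes was not tested. Tested genes were also put in 4 classes of like size by the length the authors give. Hosts in the longest class, from 5884 bases up, rose in 35.7% and fell in 14.4%, against 26.2% and 19.7% of all genes of that class. Hosts in the second class, from 1941 to 3559 bases, rose in 21.7% and fell in 22.6%, against 19.6% and 22.1%.

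The hosts that rose most in KO against NHD13 were Afap1l1, Tespa1, Apoe, Pdgfrb, Spns2 and Aff3. Apoe, the lipid carrier made by macrophages among other cells, had 52.1, 56.7 and 60.2 CPM in NHD13 and 455, 464 and 514 in KO (log2 fold change 3.08 ± 0.09, edgeR adjusted p = 9.09e-15). Tespa1, known from T cell receptor signalling, had 6.05, 8.49 and 6.48 CPM in NHD13 and 80.3, 77.5 and 75.8 in KO (3.47 ± 0.10, edgeR adjusted p = 4.36e-15). Afap1l1, an actin-binding adaptor, had 1.84, 1.10 and 1.63 CPM in NHD13 and 16.5, 19.8 and 16.9 in KO (3.54 ± 0.18, edgeR adjusted p = 1.15e-11). The rule that chose these genes required that NHD13 and KO libraries did not overlap. The WT libraries were again high, with 709 to 916 CPM of Apoe, 66.3 to 72.1 of Tespa1 and 33.0 to 46.3 of Afap1l1. Those that fell most were Ly6g5b, Hvcn1, Nrg4, Il18rap, Tuba8 and Ncf4. Ncf4, a subunit of the phagocyte oxidase, had 474, 521 and 539 CPM in NHD13 and 145, 154 and 155 in KO (-1.76 ± 0.06, edgeR adjusted p = 2.55e-14). WT libraries were low, at 101 to 106 CPM.

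Among lists of related genes, 44 of the 64 host ribosomal protein genes rose in KO against NHD13 and 1 fell, against 20.6% and 20.3% of all tested genes, with a median log2 fold change of 0.35 and 40 to 47 called higher under the other scalings. Rps19 had 1903, 2092 and 2026 CPM in NHD13 and 3222, 2972 and 3399 in KO (0.67 ± 0.08, edgeR adjusted p = 2.64e-06). Ribosomal protein genes have many processed copies, so their counts are uncertain. In NHD13 against WT 3 of the 64 rose and 4 fell, against 25.3% and 28.7% of all genes, and the sign of their median turned with upper-quartile scaling (0.01 against -0.07). In AML against KO 19 rose and 31 fell (median -0.23), against 42.8% and 39.5% of all genes. By deposited length 34 of the 64 are in the shortest and 25 in the second of 4 classes, in which 55.7% and 47.9% of all tested genes fell in that comparison. Of 104 tested hosts with a Zfp symbol, most of which encode zinc finger proteins, 26 rose and 6 fell in KO against NHD13, against 20.6% and 20.3% of all genes. In NHD13 against WT 5 rose and 40 fell, against 25.3% and 28.7%, and in AML against KO 51 rose and 30 fell, against 42.8% and 39.5%. Successive comparisons share libraries.

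H3K36 enzymes and readers had 10 hosts among 27 autosomal members (37.0%), DNA methylation genes 6 among 17, and leukemia-associated genes 10 among 25. Lost and long peaks were found in more of them: 20 and 22 of the H3K36 list, 8 and 12 of the DNA methylation list, and 17 and 17 of the leukemia list. Over all autosomal coding genes the shares were 13.1% for retained, 27.5% for lost and 25.01% for long peaks. These counts were not matched for expression. In KO against NHD13, 4 of the 10 H3K36 hosts rose and 2 fell with TMM scaling, against 20.6% and 20.3% of all tested genes. With upper-quartile scaling 6 rose and none fell. Of all genes called, 50.3% rose with TMM scaling and 58.8% with upper-quartile scaling. Dnmt3b, the reader and de novo DNA methyltransferase, had 16.1, 15.2 and 19.6 CPM in NHD13, 45.4, 50.2 and 46.4 in KO and 133, 132 and 127 in AML. It rose in KO against NHD13 by 1.48 ± 0.09 on the log2 scale (edgeR adjusted p = 6.79e-11) and in AML against KO by 1.46 ± 0.08 (edgeR adjusted p = 2.36e-12). Dnmt3a, its relative and a gene often mutated in AML, rose in the same comparisons by 0.83 ± 0.12 and 1.96 ± 0.11 (edgeR adjusted p = 3.75e-05 and 1.33e-10). Of the 10 leukemia-associated hosts, 7 rose and 1 fell in KO against NHD13, where 20.6% and 20.3% of all tested genes did. Kmt2a, the H3K4 methyltransferase whose fusions drive leukemia, rose by 0.83 ± 0.08, Runx1, a transcription factor of blood formation, by 0.57 ± 0.08, and Trp53, the tumor suppressor, by 0.38 ± 0.08.

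The lists of differentiated cells are short and had few hosts. Of all autosomal coding genes 13.1% were hosts, against 12.5% of the monocyte and macrophage list and 11.5% of the erythroid list. Departure of the lists from the share over all genes was not tested. None of 25 neutrophil granule genes held a retained peak, while 11 held a lost and 9 a long peak, and none of 16 T and NK cell genes held one. The monocyte and macrophage list had 2 hosts, Cd68 and F13a1, and both rose in KO against NHD13. Cd68, a lysosomal glycoprotein of macrophages, had 26.6, 22.8 and 26.3 CPM in NHD13 and 122, 137 and 131 in KO (2.37 ± 0.08, edgeR adjusted p = 1.45e-14). The whole monocyte and macrophage list went the other way in sum, with 7667 to 9492 CPM in NHD13 and 4327 to 4544 in KO. The erythroid list had Bcl11a and Epb41 among its hosts, the stem and progenitor list 3 (Lyl1, Runx1, Txnip) among 25, the stroma and endothelium list 2 (Pdgfrb, Pecam1) among 12 and the p53 response list 3 (Bax, Pmaip1, Trp53) among 17. The Hox-Meis, B cell, megakaryocyte and platelet, and imprinted lists had 1 host each (Pbx3, Cd79b, Gp1ba and Trappc9). Splicing factors had 4 hosts of retained peaks among 27, while 23 held a long peak.

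In NHD13 against WT, the counts over all hosts were close to those of all genes. Of the 2686 hosts, 745 rose (27.7%, against 25.3% of all tested genes) and 760 fell (28.3%, against 28.7%). Genes that held retained peaks only rose in 32.0% and fell in 20.7%. The tilt was larger in genes with long peaks only, which rose in 40.3% and fell in 13.9%. Genes with lost peaks only rose in 29.0% and fell in 28.8%. The share of called hosts that rose was 49.5% with TMM factors, 55.1% with relative log expression factors and 39.0% with upper-quartile factors. Hosts that rose most were Ly6g5b, Pbx3, Slfn2, Serpinb1a, Ncf4 and Prdx5, and those that fell most were Shisa8, Afap1l1, Apoe, F2rl2, Ifi203 and Spns2. Pbx3, a homeodomain partner of Hox proteins with 3 retained peaks, rose by 2.90 ± 0.10 (edgeR adjusted p = 1.10e-14), from 3.36 to 4.07 CPM in WT to 26.1 to 29.5 in NHD13, and further to 53.9 to 60.3 in KO and 73.3 to 78.6 in AML.

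AML against KO compares spleen with bone marrow and a C-Kit sort with an HSPC sort. Of the 2686 hosts, 1301 rose (48.4%, against 42.8% of all tested genes) and 1052 fell (39.2%, against 39.5%). Hosts of lost peaks rose in 51.4% and fell in 34.8%, and hosts of long peaks in 55.4% and 33.0%. Upper-quartile scaling moved the median of all genes from 0.07 to -0.11. Direction went with gene length in hosts and in all genes. Hosts in the shortest of the 4 length classes, up to 1940 bases, rose in 22.3% and fell in 65.9%, and hosts in the longest class rose in 72.0% and fell in 17.8%. All genes of those classes rose in 24.1% and 64.3% and fell in 55.7% and 22.2%. The part of gene length in single calls was not tested. Genes that held retained peaks only, rose in 34.1% and fell in 52.9%. Those with lost peaks only rose in 40.4% and fell in 42.8%, and those with long peaks only in 48.1% and 39.8%.

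The hosts that changed most between AML and KO did so by large factors. Nfkbia, the inhibitor that NF-kappaB induces to restrain itself, had 1231, 1236 and 1356 CPM in KO and 67.5, 66.2 and 66.0 in AML (log2 fold change -4.26 ± 0.09, edgeR adjusted p = 3.40e-18). Fth1, the ferritin heavy chain, had 5469, 4688 and 5347 CPM in KO and 341, 359 and 348 in AML (-3.89 ± 0.07, edgeR adjusted p = 2.40e-18). Smim1, Rpl29, Uqcrb and Bambi were the others that fell most. Midn, a nuclear protein gene, had 5.11, 4.79 and 5.17 CPM in KO and 187, 201 and 190 in AML (5.26 ± 0.12, edgeR adjusted p = 1.37e-17). Bak1, which opens the mitochondrial membrane in apoptosis, had 2.48, 1.18 and 2.66 CPM in KO and 82.8, 90.6 and 77.9 in AML (5.35 ± 0.20, edgeR adjusted p = 7.57e-13). Snx22, H2-Q4, Lrp5 and Pip4k2b were the others that rose most, and H2-Q4 belongs to a family of near-identical genes, so its count is uncertain.

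**Figure D4:**
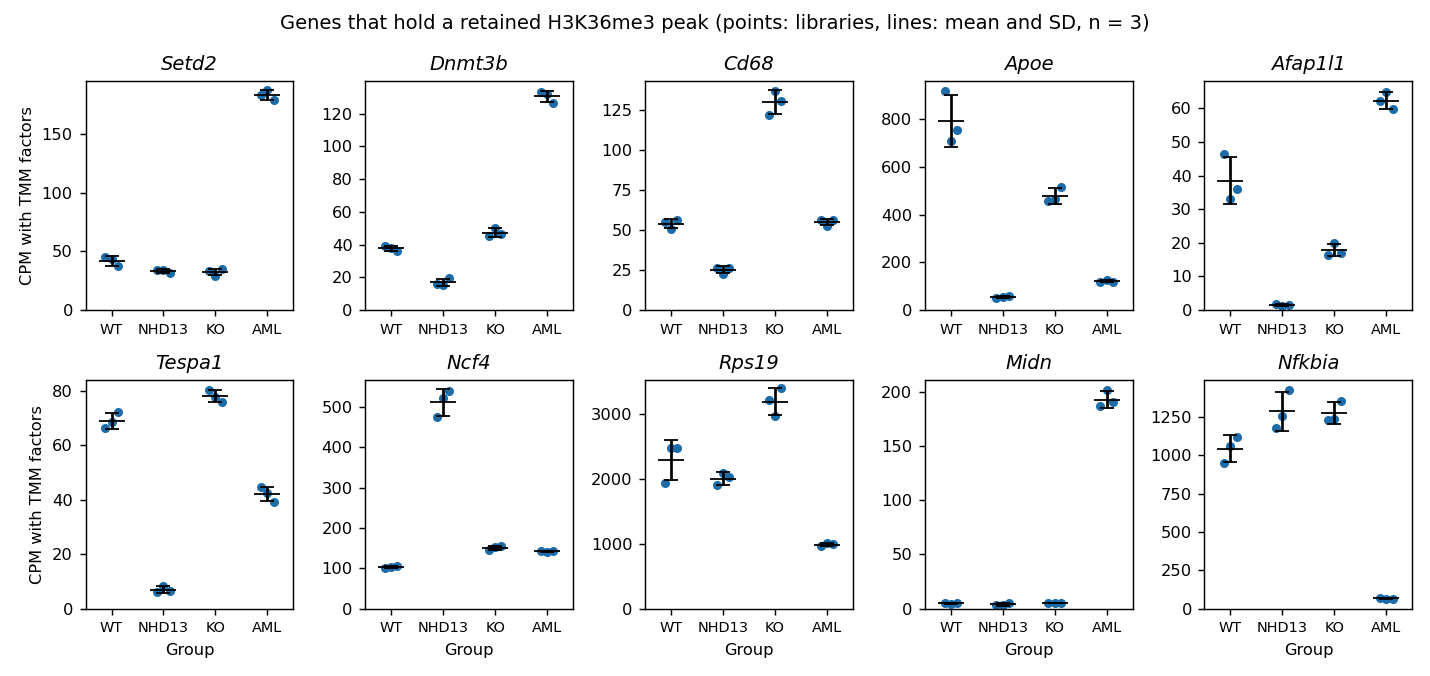
CPM with TMM factors (y axis, from 0) of 10 genes that hold a retained H3K36me3 peak in the 4 RNA groups (x axis), with 1 point per library and a black line for the mean with its SD (n = 3). Apoe, Afap1l1 and Tespa1 are lowest in NHD13, Ncf4 is highest in NHD13, and Setd2, Dnmt3b and Midn are highest in AML.

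DNA methylation was read from the authors' deposited tables of differentially methylated regions, which compare 1 bisulfite library with 1 other and hold no coverage. In HSPCs, regions where KO had less methylation than NHD13 were frequent in retained peaks. The authors' deposited table gave 365 such regions in retained peaks, which is 21.9 per Mb, against 11.1 per Mb in lost and 11.8 in long peaks. At least 1 such region touched 9.02% of retained peaks (8.10 to 10.04), 2.43% of lost peaks (2.23 to 2.65) and 19.7% of long peaks (18.6 to 20.7; Wilson intervals, counting error only). Regions where KO had more methylation occurred at 5.82, 5.88 and 4.90 per Mb. Regions lower in KO made up 22.4% of the 37430 regions of that table. In NHD13 against WT the authors' deposited table gave 19.8, 17.8 and 16.4 regions of lower methylation per Mb of retained, lost and long peak. In AML against KO it gave 15.5, 11.1 and 9.40 regions of higher methylation per Mb.

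The gap between retained and lost peaks was there in both length classes with many of these regions, and it was uneven over classes of fold enrichment. Among peaks of 4000 bp or more the authors' deposited table gave 21.4 regions lower in KO than in NHD13 per Mb of retained peak and 11.4 per Mb of lost peak, and among peaks from 2000 to 4000 bp 27.1 and 10.3. Shorter retained peaks held 9 such regions between 1000 and 2000 bp (17.8 per Mb, against 10.9 in lost peaks) and 2 under 1000 bp (13.4 per Mb in both classes). By fold enrichment the values were 12.6 and 8.14 below 4.5, 11.5 and 13.5 from 4.5 to 5, 21.5 and 19.2 from 5 to 6, and 50.4 and 32.0 at 6 or more, where lost peaks held only 10 regions. Retained peaks had more in 3 of the 4 fold classes and lost peaks in 1. CpG density of the peaks was not measured.

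Within retained peaks the regions lower in KO lay mostly outside the bases that kept a peak in KO AML. Counted by their middle, 274 lay in bases without a KO AML peak, 22.6 per Mb in the authors' deposited table, and 56 lay in covered bases, 12.3 per Mb. Covered bases thus held 17.0% of these regions and 27.4% of retained sequence. Regions higher in KO stood at 5.71 per Mb of covered and 5.37 per Mb of uncovered bases, from 26 and 65 regions. In NHD13 against WT the regions of lower methylation stood at 14.9 per Mb in covered and 18.8 in uncovered bases, and in AML against KO those of higher methylation at 12.5 and 15.1. The methylation libraries of this contrast were HSPCs and the peaks were those of AML cells.

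**Figure D5:**
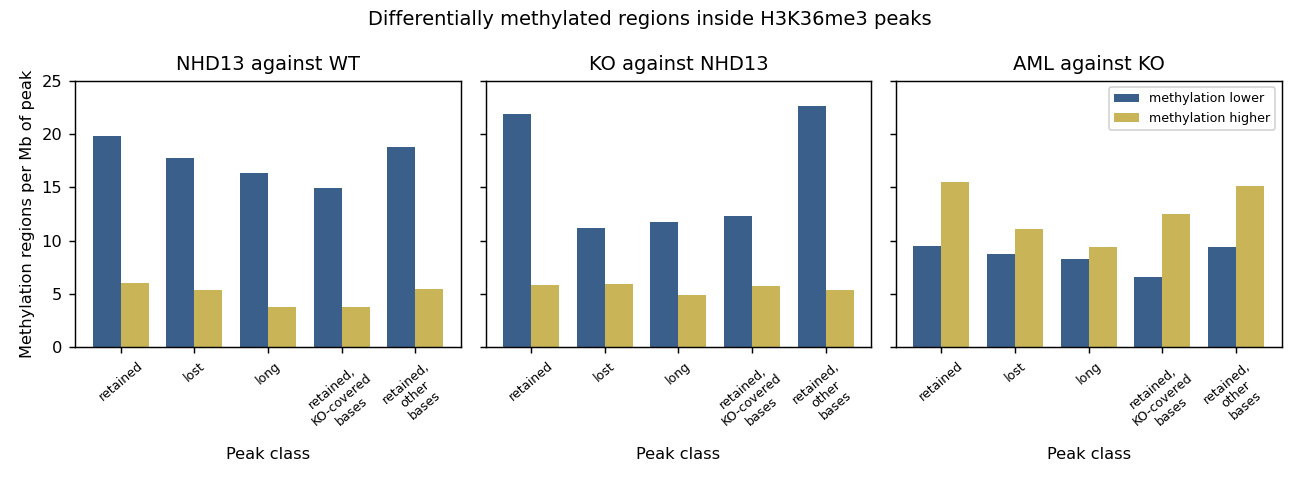
Differentially methylated regions per Mb of peak (y axis) in retained, lost and long peaks, counted by overlap, and in the bases of retained peaks with and without a KO AML peak, counted by the middle of the region, for each pair of bisulfite libraries (panels). Blue bars are regions of lower and yellow bars regions of higher methylation in the first-named group, and the tallest blue bars are the retained peaks and their uncovered bases in KO against NHD13, at 21.9 and 22.6 per Mb.

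The methylation regions of largest area score, the authors' signed statistic summed over a region, fell on a few genes. At Zfp316, a zinc finger gene, the peak chr5:143252509-143257926 (39.8% covered) held a region of 610 CpG sites at chr5:143252372-143255634. The authors' deposited table for NHD13 against WT gave it a mean methylation of 0.277 in WT and 0.796 in NHD13. For a nearly identical region of 612 CpG sites the authors' deposited table for KO against NHD13 gave 0.797 in NHD13 and 0.256 in KO, and the authors' deposited table for AML against KO gave 0.252 in KO and 0.911 in AML over 605 sites. Methylation was thus high in NHD13 and AML and low in WT and KO. Zfp316 RNA was low in all HSPC groups, at 0.723 to 2.78 CPM, and ran from 13.7 to 14.1 CPM in AML, the library group of highest methylation.

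Irf2bpl and Arhgap9 showed the same order between WT, NHD13 and KO. At Irf2bpl the authors' deposited tables gave 0.279 in WT and 0.654 in NHD13, and 0.669 in NHD13 and 0.256 in KO, over 182 CpG sites each. Irf2bpl RNA went the other way, with 3.07 to 6.26 CPM in WT, 1.10 to 1.73 in NHD13 and 5.14 to 6.08 in KO, but was highest in AML, at 24.3 to 28.3. At Arhgap9 the authors' deposited tables gave 0.457 and 0.862 for WT and NHD13, and 0.817 and 0.294 for NHD13 and KO. Snx20, a sorting nexin of white blood cells, fell from 0.979 in NHD13 to 0.467 in KO over 266 sites in the authors' deposited table, and its RNA did not pass the test between those groups (0.22 ± 0.09, edgeR adjusted p = 0.0628). B4galnt1, a ganglioside synthase gene, fell from 0.696 to 0.170 in the authors' deposited table, and Itpkb, an inositol phosphate kinase gene, from 0.597 to 0.205. The 2 regions of largest area score among those higher in KO changed less: a tRNA cluster at Fcgr3 went from 0.281 to 0.475 and Ajm1 from 0.347 to 0.531 in the authors' deposited table.

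Some of these loci changed again in AML. In the authors' deposited table for AML against KO, Ajm1 went from 0.414 to 0.951 over 497 CpG sites, Irf2bpl, whose RNA was also higher in AML, from 0.245 to 0.794 over 206 and the tRNA cluster at Fcgr3 from 0.331 to 0.760 over 471. Camk2b, a calmodulin-dependent kinase gene, fell from 0.553 to 0.0939, and Rrp36, a factor of ribosomal RNA processing, from 0.818 to 0.158 in the authors' deposited table. Camk2b had also been lower in NHD13 than in WT, at 0.341 against 0.672 over 212 sites in the authors' deposited table. Regions of successive tables share a library, so the side-by-side values are not independent.

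Few promoters lay inside retained peaks, and 10 of the 80 such windows were touched by a methylation region. Both windows printed here were among them. The share touched among all promoter windows, or among those in lost and long peaks, is not given here. The count of 10 in 80 can therefore not be called high or low. The Klhl5 window, chr5:65130981-65131280 on the plus strand, was the 1 window with an official symbol that a KO AML peak also covered and a methylation region touched. The Cd68 window, chr11:69666121-69666420 on the minus strand, belongs to the macrophage gene that rose in KO. They are given 5′ to 3′ from RefSeq (GRCm38.p6) with CpG sites in capitals, 8 in Klhl5 and 4 in Cd68:
Klhl5 promoter: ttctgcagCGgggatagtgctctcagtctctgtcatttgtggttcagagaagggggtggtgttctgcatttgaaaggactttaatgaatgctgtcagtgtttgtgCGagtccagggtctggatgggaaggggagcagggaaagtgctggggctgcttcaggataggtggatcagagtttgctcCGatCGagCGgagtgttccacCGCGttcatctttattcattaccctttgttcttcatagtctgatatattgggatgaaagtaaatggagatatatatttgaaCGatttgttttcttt
Cd68 promoter: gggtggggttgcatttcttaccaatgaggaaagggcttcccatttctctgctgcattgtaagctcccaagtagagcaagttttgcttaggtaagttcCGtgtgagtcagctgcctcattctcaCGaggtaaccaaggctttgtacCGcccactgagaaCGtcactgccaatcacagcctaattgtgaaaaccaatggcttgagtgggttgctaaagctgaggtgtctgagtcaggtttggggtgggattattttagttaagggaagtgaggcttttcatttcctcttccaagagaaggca
All 80 windows had a median of 5.5 CpG sites (CG, which reads the same on both strands) and windows inside lost and long peaks a median of 4 each, and all 31396 autosomal windows had a median of 7. The region at Klhl5, a kelch-family gene, went from 0.727 in WT to 0.959 in NHD13 over 49 CpG sites in the authors' deposited table. Klhl5 RNA fell from 45.5 to 49.0 CPM in WT to 39.2 to 40.5 in NHD13 (-0.23 ± 0.07, edgeR adjusted p = 0.00568). The region at Cd68 went from 0.688 in WT to 0.449 in NHD13 over 17 CpG sites in the authors' deposited table, and Cd68 RNA fell from 50.9 to 56.1 CPM to 22.8 to 26.6 (-1.10 ± 0.08, edgeR adjusted p = 4.66e-10). Methylation and RNA thus moved in opposite directions at Klhl5 and in the same direction at Cd68, each from 1 bisulfite library per group.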

How the data were processed

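H3K36me3 peaks, RNA and DNA methylation were analysed from the processed tables. Groups came from the labels. The members and the gene lists were chosen with earlier results of these data known.

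Raw read counts per gene and FPKM were deposited by the authors. Per the submitters' processing notes, HISAT2 2.0.5, HTSeq 0.9.1, Bowtie2 2.2.9, MACS2 2.1.1.20160309 and Bismark 0.19.0 were among the tools, on mm10. The deposited peak lists give, in the layout MACS2 writes, a score (10 times the −log10 q), a fold enrichment ratio, and −log10 p and q for each peak, 1 library per list. ChIP input and depth, and the caller of the methylation regions, were not stated in the labels. The authors' region tables give methylation as a fraction, with a difference and an area score per region. Which side is which library was taken from the order in the table names, and was checked on 4032 and 2467 regions that are identical in successive tables: the shared library had a median difference of 1.19e-06 and 9.36e-06.

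Genes, promoter windows and microRNAs came from RefSeq tables of GRCm38.p6, the build of mm10. Genome sequence of the peaks was not used here, so promoters and microRNAs are shown in its place. Overlap meant at least 1 bp. RNA counts were tested with edgeR 4.0.16 (R 4.3.3): TMM factors, filterByExpr (16233 genes kept), 1 model over 12 libraries, robust quasi-likelihood test, Benjamini-Hochberg adjustment over all tested genes at 0.05. The script was tested on simulated data. CPM carries TMM factors, except for Xist, Eif2s3y and marker sums. Alternatives were DESeq2 1.42.0, other scalings, filters, a replicate block, left-out libraries and other peak rules.

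Named peaks were the 10 of highest fold enrichment with an official symbol and those at each limit of the rule; a few items that these rules name are not reported here. Named genes were the 10 with most retained peaks and those tied with the last, the 6 hosts that rose and fell most per comparison (adjusted p below 0.05, groups apart in every library, mean of the higher group 10 CPM or more), up to 4 hosts per list by p, ribosomal protein genes by abundance, Setd2 and its relatives, and genes of the 6 methylation regions of largest area score per direction. Kcnq3, Mir17hg, Mcm7, Klhl5 and the genes next in rank by fold were chosen after their values were seen. Replicate numbers did not pair the libraries: the correlation of deviations between same-numbered libraries ran from -0.0876 to 0.109. Libraries of a group differed by more than counting noise (chi-square per degree of freedom 1.97 to 30.4). Intervals cover counting error only.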

Additional observations from a re-analysis of the deposited data

How the results depend on the processing

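The share of short peaks retained depends on the rule and on the lists: it was 2.92% with 50% of the peak covered, 8.92% with a −log10 q of at least 5 in both lists, 4.13% with that limit in the KO AML list alone and 8.36% with a length limit of 5000 bp. In the same order, the share inside a gene was 93.4%, 96.8%, 96.1% and 95.5%, and it was 93.9% where at least 50% of the peak had to be in the gene. The share at a gene start was 3.78%, 3.80% and 3.66% under the first 3, and 39.0% within 5000 bp of a start. The share with a methylation region in NHD13 against WT was 14.9%, 13.8% and 6.84% under the last 3 of these rules, 9.26% by the middle of the region and 7.49% with at least 10 CpG sites. In KO against NHD13 it was 16.7%, 15.4% and 8.32%, and 8.75% with at least 10 CpG sites. In AML against KO it was 8.82% with 50% coverage, then 14.9%, 14.5% and 7.19%, and 7.04% with at least 10 CpG sites.

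Counts of called hosts stayed within 1.5 times their value under each scaling, filter, tool and left-out library tried. Without 1 library, hosts called higher and lower numbered 706 to 826 and 669 to 794 in NHD13 against WT, 632 to 824 and 421 to 584 in KO against NHD13, and 1261 to 1330 and 1022 to 1080 in AML against KO. With genes that hold retained peaks only, fewer genes enter, and the counts were 381 and 247, 279 and 233, and 407 and 631. The replicate block gave 742 and 751, 725 and 492, and 1286 and 1050, and changed no count by more than 1.5 times. The median host in CPM, which is not divided by gene length, was at 34.9 in WT, 33.9 in NHD13, 35.2 in KO and 43.7 in AML, against 6.01, 4.40, 5.21 and 9.93 FPKM. Depth and input of the 2 ChIP libraries limit which peaks could be called, and their effect was not tested.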

Other observations

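A small group of retained peaks lay outside all RefSeq genes. There were 82 of them (2.46% of retained peaks), with a median length of 1087 bp against 5043 bp for those in genes. KO AML peaks covered 29 of the 82 (35.4%) completely, against 87 (2.67%) of those in genes. Their median fold enrichment in the NHD13 AML list was 4.54, against 4.93 in genes. The member of highest fold enrichment, 42.1, was one of them, at chr9:3034808-3038337, next to autosomal peaks that the limit of 100 left out. Others were a 511 bp peak on chromosome 7 (18.0), a 1539 bp peak on chromosome 15 (15.6), a 494 bp peak on chromosome 3 (15.1) and a 332 bp peak on chromosome 12 (14.99), all fully covered. The KO AML peaks over these others had fold enrichments of 41.1, 94.0, 40.5 and 34.2 in the same order. The KO AML peak over the chromosome 9 member had 562.

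The second highest, 34.5 (123 for the KO AML peak), lay on the ribosomal RNA copy Rn18s-rs5 on chromosome 17 and was fully covered too. In the authors' deposited table for AML against KO a region of 1227 CpG sites over it went from 0.375 to 0.595. These peaks were named after their values were seen.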
